A study of Mus musculus with 12 samples.

Results

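The comparison described here is that of PKN2 KO with WT pancreatic stellate cells (PSCs) after 72 h with 5 ng/ml TGF-β1, read with a targeted RNA panel for mouse extracellular matrix (ECM) and cell adhesion genes. It rests on 6 of the 12 libraries of the series, 3 PKN2 KO and 3 WT, each group with libraries lettered A, B and C. Members were chosen by level alone: 3 or more of these 6 libraries had to reach a normalized count of 10, and 214 of the 420 genes listed did. Of the other genes, 97 had no read in the 6 libraries and 109 had reads but stayed under the filter. At its edge, Col10a1 and Clec3b just passed, with a third-highest value of 10.3 and 11, and Pecam1 and Adamts18 just failed, with 9.46 and 8.6.

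The study asked how loss of the kinase PKN2 alters the matrix program of stellate cells. All libraries came from mouse PSCs of the C57BL/6 background with the genotype Rosa26 CreERT2 PKN2 fl/fl, immortalized with SV40 large T antigen. By the study's methods the cells were isolated from the pancreas of 1 male mouse, whereas the series' own description counts 3 PKN2 KO and 3 WT cell lines. In PKN2 KO cells the floxed alleles were recombined by a pulse of 4-hydroxytamoxifen, which activates CreERT2. Rosa26 drives CreERT2 in all cell types. Whether WT cells also received 4-hydroxytamoxifen is not given in the sources used here. WT and PKN2 KO cells were given TGF-β1 (the 6 libraries compared here) or its vehicle (the other 6, used for the shared estimate of spread and for the interaction). Since nothing says that the lettered libraries come from separate animals, p-values measure only the spread between these libraries, which may be technical.

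PKN2 is a serine/threonine kinase that acts in signaling to the actin cytoskeleton, cell adhesion and migration. Stellate cells are the resident mesenchymal cells of the pancreas. When activated they become contractile, matrix-producing myofibroblasts, and TGF-β1 drives this switch through SMAD transcription factors, alongside the tension-sensitive coactivators YAP and TAZ, which bind DNA through TEAD factors. Activated stellate cells lay down most of the collagen-rich stroma of pancreatic tumors.

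The panel holds neither Pkn2 nor Acta2, so the deletion and smooth muscle actin could not be examined here. The 6 libraries held between 1136021 and 1459774 reads, 61.4% of them on 10 genes led by Lgals1, Col1a1, Bgn and Sparc. Of 10 fibroblast markers, 8 were tested, among them Col1a1, Col1a2, Fn1 and Sparc. Lum had no read in the 6 libraries and Dcn had at most 4. Of 12 endothelial markers 2 passed the filter, and their summed reads ranged from 53 to 67 in WT and from 27 to 48 in PKN2 KO libraries. The defining endothelial gene Cdh5 had 2, 3 and 7 reads in WT and 0 in each PKN2 KO library. None of 12 leukocyte markers passed, with 6 to 11 summed reads in WT and 5 to 12 in PKN2 KO and Itgam at 0 throughout. Of 11 epithelial markers 1 passed (Lamb3), with 28 to 41 summed reads in WT and 34 to 52 in PKN2 KO, and Cdh1 had 1 read in all. The B libraries had the lowest and the A libraries the highest summed normalized counts in both genotypes, so that libraries of the same letter often stand together below.

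PKN2 loss changed the level of 31 of the 214 genes (14.5%) at an adjusted p-value under 0.05 in limma, and in these genes the 3 PKN2 KO libraries lay wholly above or below the 3 WT libraries. Of these, 19 genes (8.88%) were higher and 12 (5.61%) were lower in PKN2 KO PSCs. The small leucine-rich proteoglycans Prelp and Fmod, the C1 inhibitor Serping1 and the basement membrane gene Lama5 were among those that rose most. The protease Mmp9, the cartilage-type collagens Col2a1 and Col11a1, and the TGF-β1-responsive genes Ccn2 and Thbs1 were among those that fell. In bulk libraries, fewer cells of a type and less RNA per cell cannot be told apart, and this holds for each difference given here. The change was 2-fold or larger for 23 of the 31 genes. Of all 214 genes, 128 had a positive and 86 a negative log2 fold change, with a median of 0.12. Groups did not overlap for 60 genes (28%), 38 higher and 22 lower, so 29 of these were not called.

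**Figure D1:**
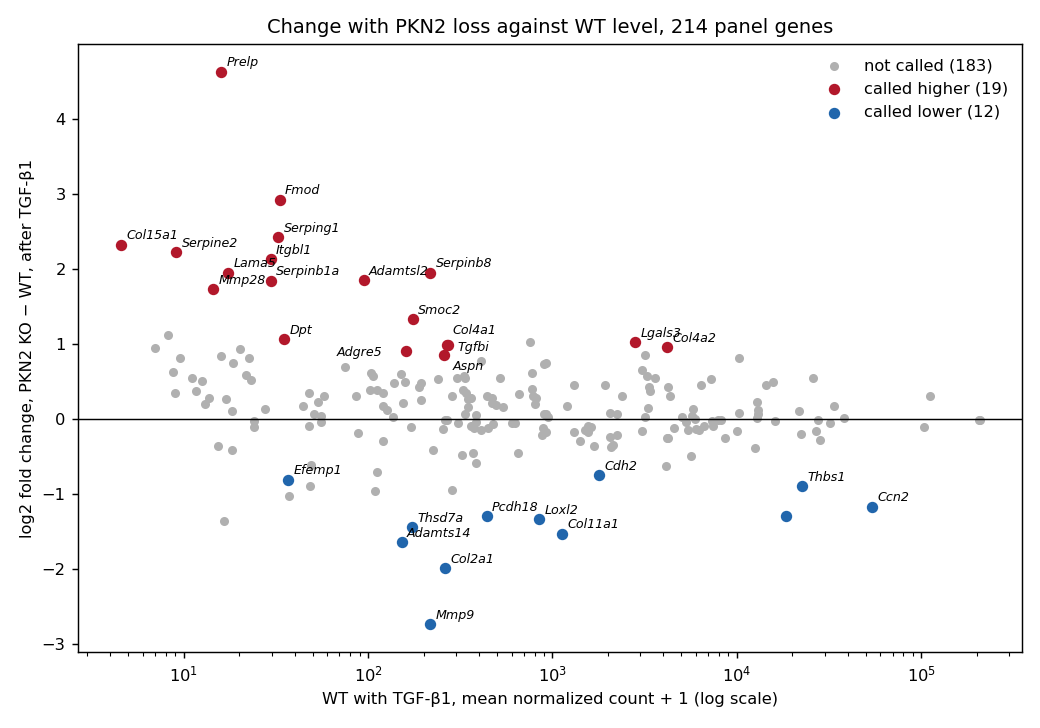
Each point is 1 of the 214 genes tested, placed by its mean normalized count plus 1 in the 3 WT libraries with TGF-β1 (x axis, log scale) and by its log2 fold change, PKN2 KO minus WT (y axis). Red points are the 19 genes called higher and blue points the 12 called lower. The called higher genes sit mostly at low WT counts, while Ccn2 and Thbs1 lie at the far right of the called lower genes.

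The genes that rose and those that fell differed in their WT counts, in part because the direction of a call sets which group is low. Among the 19 higher genes the median WT mean was 34.2 normalized counts, and 10 of them stood at 50 or below. Among the 12 lower genes the median WT mean was 640 and 1 stood at 50 or below, against a median of 440 over all genes tested. In PKN2 KO libraries the order of the 2 sets was reversed. Their median means there were 304 for the higher and 253 for the lower genes, against 496 over all genes tested. Together the 12 lower genes held 7.35% of all normalized counts in WT and 3.34% in PKN2 KO libraries, whereas the 19 higher genes went from 0.634% to 1.37%. A library's normalized count is its reads divided by 1 factor, and amplicons of different genes were not scaled to length, so these values describe how many reads support a gene and not how abundant its transcript is beside another. Of the genes that passed the filter, 2 (Col15a1 and Adam32) reached a count of 10 in one genotype only, and such a gene had to be higher in that genotype to be tested.

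The scaling of the libraries moved the balance between higher and lower genes. With the authors' factors 61.3% of the called genes were higher. The split was 25 higher and 21 lower with TMM, 24 and 28 under the median of ratios, and the total count 41 and 20. The median over the 214 genes went with it, from 0.12 on the log2 scale under the authors' scaling (total count 0.11) to 0.04 under TMM and -0.01 under the median of ratios, and each difference below can be read against that shift. All 31 genes kept their direction and were called with each of these 3 other scalings. When the letter was fitted as a block, with no trend of the variance, 83 genes were called (38.8%), 54 higher (25.2%) and 29 lower (13.6%). All 31 were among them. That block spans all 12 libraries, and letter C did not pair them all. Adjusted p-values given below without and with the block are those of limma with the authors' factors. Family counts below can be read against the shares over all genes tested, 14.5% without and 38.8% with the block.

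Small leucine-rich proteoglycans, which bind collagen fibrils and set their spacing and diameter, showed the largest rise of any family described. Of 4 tested, 3 were called higher and 0 lower, with a median log2 fold change of 1.88 against 0.12 over all genes. Prelp, a proteoglycan that links collagen to basement membranes, stood at 21.2, 11.9 and 11.5 normalized counts in WT libraries A, B and C and at 654, 256 and 323 in the PKN2 KO libraries. The lowest PKN2 KO value was thus more than 10 times the highest WT value. Mean counts were 411 ± 213 in PKN2 KO and 14.9 ± 5.52 in WT (SD, n = 3), 27.6-fold apart, and the log2 fold change was 4.63 with a standard error (SE) of 0.36 (adjusted p = 7.01e-07). Fmod (fibromodulin), a regulator of collagen fibril assembly, had 50.7, 22.9 and 23.1 in WT and 376, 146 and 231 in PKN2 KO libraries. All PKN2 KO libraries lay above all WT libraries, and the A library was highest in both groups. Its log2 fold change was 2.92 (SE 0.47, adjusted p = 5.79e-04), with 2.87, 2.62 and 3.27 within letters A, B and C. Aspn (asporin) rose by less, from 304, 217 and 248 to 512, 402 and 467, a log2 fold change of 0.85 (adjusted p = 0.00806). Bgn (biglycan), by far the most counted of the 4, had a log2 fold change of 0.30 (95% interval -0.26 to 0.85) and its groups overlapped.

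Prelp and Fmod, which both rose, are neighbors on mouse chromosome 1. Col11a1 on chromosome 3 and Adamts14 on chromosome 10, which both fell, are shown beside them. The sequences are the 250 bases before each RefSeq gene start (GRCm38.p6), printed 5′ to 3′ on the strand of the gene, for Prelp chr1:133921402-133921651 on the minus strand, for Fmod chr1:134037004-134037253 on the plus strand, for Col11a1 chr3:114030290-114030539 on the plus strand and for Adamts14 chr10:61273420-61273669 on the minus strand. Capitals mark the SMAD-box letters CAGAC, or their reverse complement GTCTG.
Prelp: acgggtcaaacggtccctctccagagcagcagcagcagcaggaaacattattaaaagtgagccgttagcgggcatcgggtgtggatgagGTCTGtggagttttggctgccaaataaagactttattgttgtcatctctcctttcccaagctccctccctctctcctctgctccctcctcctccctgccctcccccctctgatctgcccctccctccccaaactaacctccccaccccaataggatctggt
Fmod: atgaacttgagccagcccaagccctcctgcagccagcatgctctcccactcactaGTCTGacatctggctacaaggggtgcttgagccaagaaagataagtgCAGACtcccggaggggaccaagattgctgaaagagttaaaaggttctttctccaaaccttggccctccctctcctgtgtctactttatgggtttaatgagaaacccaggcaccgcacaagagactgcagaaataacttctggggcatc
Col11a1: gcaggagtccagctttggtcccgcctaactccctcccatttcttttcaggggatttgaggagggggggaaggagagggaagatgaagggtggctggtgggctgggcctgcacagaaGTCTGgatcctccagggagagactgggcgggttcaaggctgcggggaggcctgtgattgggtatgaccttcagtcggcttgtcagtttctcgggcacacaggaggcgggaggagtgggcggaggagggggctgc
Adamts14: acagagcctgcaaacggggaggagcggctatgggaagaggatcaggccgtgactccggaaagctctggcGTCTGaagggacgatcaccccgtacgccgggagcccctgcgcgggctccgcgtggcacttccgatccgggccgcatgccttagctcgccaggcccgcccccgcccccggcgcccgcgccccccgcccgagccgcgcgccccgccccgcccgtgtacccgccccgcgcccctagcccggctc

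Windows of this kind were found for 137 of the 214 genes tested, 15 of the 19 higher and 5 of the 12 lower genes. Ccn2, Thbs1, Mmp9 and Col2a1 had no entry. The SMAD-box letters were in 8 of the 15 windows of higher genes (53.3%) and in 3 of the 5 of lower genes (60%), against 48.2% of the genes tested and 45.8% of 27025 genes with a window. The TEAD letters GGAATG were in 0 of the 15 and 0 of the 5, against 11.7% of the genes tested and 14.4% of all. The AP-1 letters TGANTCA were in Serpinb8 among the higher and Efemp1 among the lower genes, against 5.84% of the genes tested and 7.82% of all. Both strands were searched, and each match describes letters only.

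**Figure D2:**
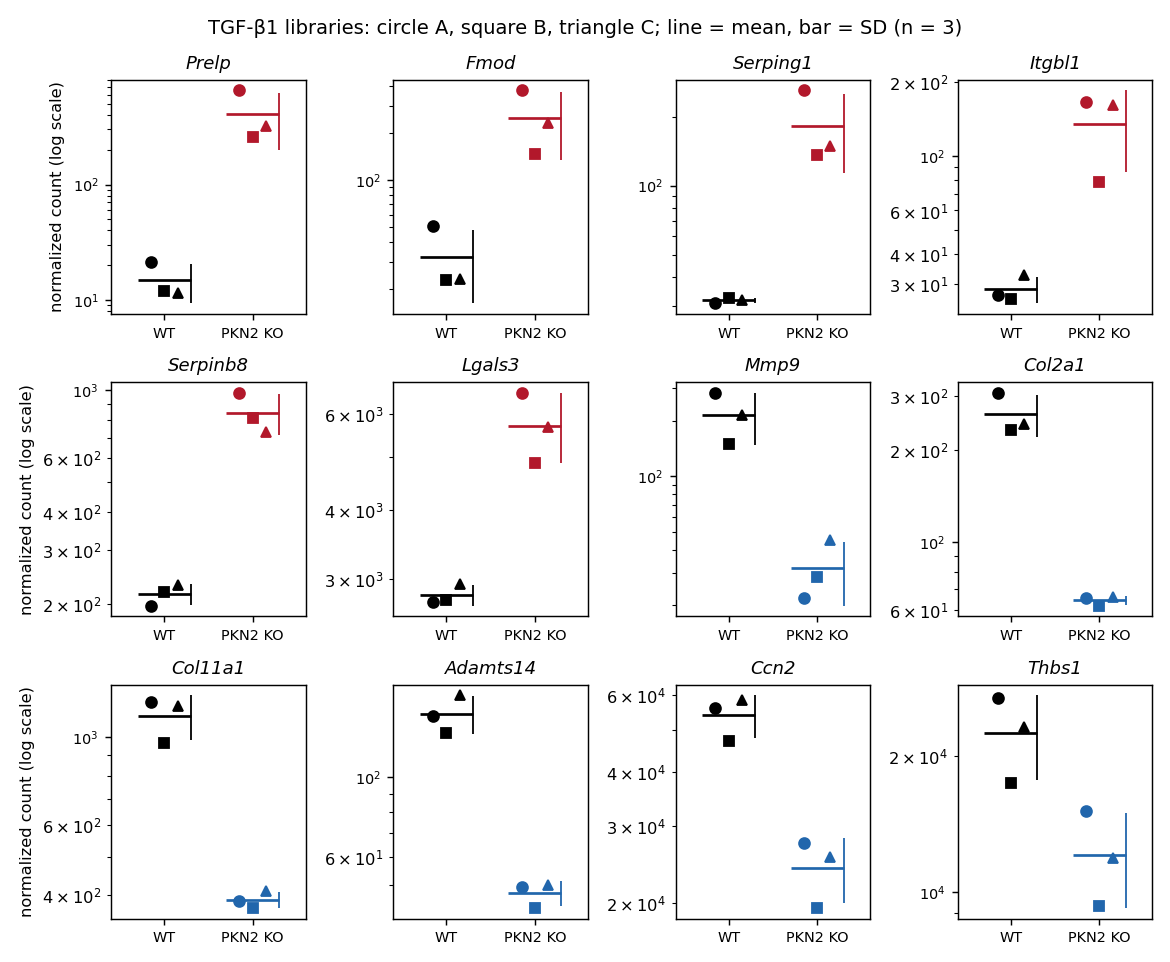
Normalized counts (y axes, log scale, a range of its own for each gene) of 12 genes in the 3 WT and 3 PKN2 KO libraries with TGF-β1, with circles for library A, squares for B and triangles for C. Horizontal lines are means and vertical bars SD (n = 3). In each of the 12 genes the groups do not overlap, and Prelp shows the widest gap.

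Of the basement membrane genes, those that passed the test rose. Of 12 tested, 4 were called higher and 0 lower, with a median log2 fold change of 0.57 against 0.12 over all genes, and 6 were higher with the block. Col4a1 and Col4a2, the 2 chains of the most widespread collagen IV network, rose together, and Col4a1 went from 286, 224 and 287 to 610, 467 and 509 normalized counts, with no overlap. Their log2 fold changes were 0.99 (adjusted p = 0.00148) and 0.96 (adjusted p = 0.0351). Lama5, the α5 chain of laminin, had 17.7, 14.2 and 17.3 in WT and 88.9, 51.6 and 62.2 in PKN2 KO libraries. It rose by 1.95 on the log2 scale (SE 0.33, adjusted p = 7.25e-04), while the laminin β and γ chains Lamb1, Lamb2 and Lamc1 stood at -0.09, -0.10 and 0.31 without passing the threshold. Col15a1, a collagen of the outer basement membrane zone, had 4.72, 3.16 and 2.88 in WT and 35.6, 16.3 and 17.1 in PKN2 KO libraries. Its log2 fold change of 2.32 (SE 0.42, adjusted p = 0.0012) rests on few reads. Col15a1 passed the filter through the PKN2 KO libraries alone, so it had to be higher to be tested. Its call therefore adds no support to the family count. Col4a5 and Col18a1 passed with the block and not without it (0.48 and 0.65; adjusted p = 0.158 and 0.362 without it, 0.0186 and 0.0165 with it). Nid1 (-0.25), which bridges laminin and collagen IV, and Hspg2 (0.37), or perlecan, were not called.

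The 3 chains of collagen VI, which forms beaded microfilaments around cells, had similar differences and were called with the letter as a block, not without it. All 3 passed at an unadjusted p-value under 0.05, DESeq2 called 2 and edgeR 0, and unblocked limma called Col6a3 with 3 of the 3 other scalings, Col6a2 with 2 and Col6a1 with 1. The log2 fold changes of Col6a1, Col6a2 and Col6a3 were 0.85, 1.03 and 0.81, with adjusted p-values of 0.132, 0.086 and 0.0856 without and 0.00557, 4.2e-04 and 7.17e-04 with the block. Col6a3 had 13013, 7423 and 10287 normalized counts in WT and 23193, 13167 and 17719 in PKN2 KO libraries, so that the groups did not overlap although the letters differed widely. Within letters A, B and C its log2 difference was 0.83, 0.83 and 0.78.

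The fibrillar collagens that make up most of the fibrous matrix gave no call in limma without the block and with the authors' factors. Of the 6 genes tested 0 were called in either direction, 0 also by edgeR and DESeq2 and 0 at an unadjusted limma p-value under 0.05, with a median log2 fold change of -0.01. Col1a1 had 287598, 128611 and 204906 normalized counts in WT and 297374, 118607 and 208787 in PKN2 KO libraries, which overlapped fully. Its log2 fold change was -0.01 (95% interval -0.85 to 0.82), and those of Col1a2 and Col5a2 were 0.01 (-0.54 to 0.56) and -0.01 (-0.53 to 0.50). Within the same letter Col1a1 differed by 0.05, -0.12 and 0.03. With the block Col3a1 was called higher (0.53, adjusted p = 0.0127, and 0.367 without the block) and Col5a1 lower (-0.39, adjusted p = 0.029, and 0.169 without). Unblocked limma called Col5a1 with 2 of the 3 other scalings and Col3a1 with 1.

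Among collagens best known from cartilage, those that passed the test fell. Of 6 tested, 0 were called higher and 2 lower, and 3 were lower with the block, with a median log2 fold change of -0.66. Col2a1, the main collagen of cartilage, had 307, 233 and 243 normalized counts in WT and 65.7, 61.9 and 65.9 in PKN2 KO libraries. The PKN2 KO libraries were within a few counts of each other and well below WT, at 24.7% of the WT mean, which is -1.99 on the log2 scale (SE 0.17, adjusted p = 1.05e-06). Col11a1, which nucleates collagen fibrils and marks activated fibroblasts, fell from 1225, 964 and 1200.1 to 387, 372 and 409. Its log2 difference was -1.53 (SE 0.17, adjusted p = 2.36e-05), and -1.66, -1.37 and -1.55 within letters. Col27a1 passed with the block (-0.95, adjusted p = 0.0181, and 0.0721 without) and in edgeR (0.036) and DESeq2 (0.0116). Col9a3, Col10a1 and Col11a2 had few counts and were not called. Their log2 fold changes were 0.52, 0.94 and -0.36, so not all members were lower. Of the other collagens, Col7a1, which anchors epithelia, was lower with the block (-0.96, adjusted p = 0.0113, and 0.0944 without) and in edgeR (0.0412) and DESeq2 (0.0143). Col20a1 was higher with the block (0.81, adjusted p = 0.0451, and 0.188 without), and its groups did not overlap, with 18.9, 29.2 and 16.3 normalized counts in WT and 35.6, 41.3 and 35.4 in PKN2 KO libraries. Col8a1, Col12a1 and Col16a1 lay between -0.35 and -0.16 without a call.

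Enzymes that process and crosslink collagen gave 2 calls without the block, both lower. Of 12 tested, 0 were called higher and 2 lower, with a median of 0.02 (-0.06 with TMM). With the block 2 were higher and 2 lower. At an unadjusted p-value under 0.05, 3 passed, Pxdn among them. Over all genes tested 14.5% were called without and 38.8% with the block. Adamts14, which removes the N-terminal propeptide of procollagen, had 149, 133 and 170 normalized counts in WT and 49.2, 43 and 50 in PKN2 KO libraries. It fell by 1.64 on the log2 scale (SE 0.21, adjusted p = 8.96e-05), whereas Adamts2, which has the same activity, stood at 0.28 (adjusted p = 0.348, 0.0302 with the block). Loxl2, a lysyl oxidase that crosslinks collagen, went from 1239, 519 and 767 to 420, 199 and 363, and fell by 1.34 (SE 0.36, adjusted p = 0.0206). Lox, Loxl1, Plod2, P4ha1 and the collagen chaperone Serpinh1 lay between -0.12 and 0.10, none called, and with 95% intervals of -0.47 to 0.68 for Lox and -0.46 to 0.47 for Plod2.

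Genes that TGF-β1 is known to induce in myofibroblasts split into a few that fell and many that were not called. Of 24 tested, 1 was called higher and 5 lower, with a median of -0.06, and 3 higher and 7 lower with the block. Ccn2, or CTGF, a secreted profibrotic factor and a textbook target of both SMAD and YAP-TEAD signaling, had 56006, 47181 and 58592 normalized counts in WT and 27421, 19487 and 25482 in PKN2 KO libraries. The PKN2 KO mean was 44.7% of the WT mean, -1.17 on the log2 scale (SE 0.22, adjusted p = 0.00157). Thbs1, or thrombospondin 1, an activator of latent TGF-β, had 26926, 17429 and 23268 in WT and 15110.4, 9320.0 and 11887 in PKN2 KO libraries, a fall of 0.90 (adjusted p = 0.0111). For both genes each PKN2 KO library was below each WT library, and the log2 difference within letters ranged from -1.28 (Ccn2, B) to -0.83 (Thbs1, A). The lower genes also held Loxl2, above, and Cdh2, below, and the higher one was Tgfbi, with 340, 202 and 270 in WT and 633, 469 and 478 in PKN2 KO libraries (log2 fold change 0.98, adjusted p = 0.0233).

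Other myofibroblast genes of this list were not called. Fn1 stood at 0.17 (95% interval -0.61 to 0.95), Postn at -0.28 (-0.88 to 0.32), Tnc at -0.16 (-0.64 to 0.32), Itga5 at 0.01 (-0.41 to 0.44) and Cdh11 at 0.02 (-0.63 to 0.67). Among 7 YAP-TEAD target genes on the panel, a group the study also examined in these cells, so that its direction is not independent evidence, 1 was called higher (Tgfbi) and 3 lower (Ccn2 and Thbs1 among them), with a median log2 fold change of -0.63. Fbn1 was lower with the block (-0.63, adjusted p = 0.00925, and 0.158 without) and with each of the 3 other scalings, and Cd44 and Col5a2 stood at -0.03 and -0.01.

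**Figure D3:**
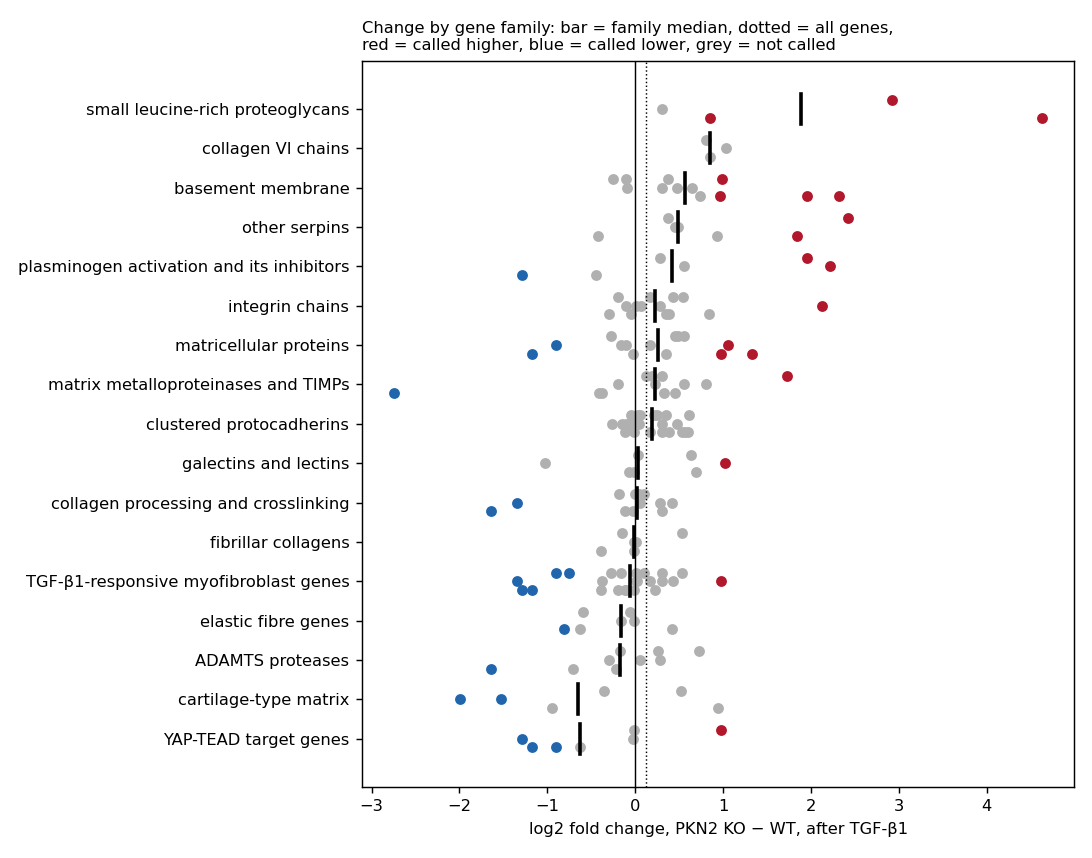
Log2 fold change, PKN2 KO minus WT after TGF-β1 (x axis), of the tested genes of 17 families (rows). Points are genes, red when called higher, blue when called lower and grey when not called, black bars are family medians and the dotted line is the median over all 214 genes. The small leucine-rich proteoglycans have the highest median, 1.88, and the cartilage-type matrix genes the lowest, -0.66.

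A list of 6 tested genes held plasminogen activation, its inhibitors and some clade B serpins, Serpinb8 among them. Of these 6, 2 were called higher, Serpine2 and Serpinb8, and 1 lower, and 3 were higher and 2 lower with the block. Serpine2, or protease nexin-1, which inhibits thrombin and urokinase, had 9.44, 11.1 and 3.84 normalized counts in WT and 75.2, 26.7 and 28.1 in PKN2 KO libraries. Its log2 difference of 2.22 (SE 0.54, adjusted p = 0.0111) rests on few reads. These were 8, 14 and 4 in WT and 55, 31 and 23 in PKN2 KO libraries. Of the WT libraries only B reached the level of the filter, so Serpine2 passed it mainly through the PKN2 KO libraries. Its call therefore adds little support to the count of higher genes in this list. Serpinb8, an intracellular serpin, had 198, 220 and 232 in WT and 979, 813 and 731 in PKN2 KO libraries. Its spread was much tighter, and it rose by 1.95 on the log2 scale (SE 0.14, adjusted p = 7.01e-07). The plasminogen activator Plau (urokinase) stood at -0.45 (adjusted p = 0.21, 0.0193 with the block). Of 7 other serpins 2 were called higher, and 5 with the block. Serping1, which inhibits C1 of the complement cascade, had 30.7, 32.4 and 31.7 in WT and 260, 136 and 149 in PKN2 KO libraries, a 5.75-fold rise in the mean (log2 fold change 2.42, SE 0.31, adjusted p = 8.96e-05). Serpinb1a, an intracellular inhibitor of neutrophil proteases, rose from 44.8, 27.7 and 13.5 to 114, 75.7 and 98.9 (log2 fold change 1.84, adjusted p = 0.00273).

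Among the matrix metalloproteinases and their inhibitors, 13 tested, 1 was called higher and 1 lower, against 14.5% called over all genes tested. With the block 2 were higher and 3 lower. Mmp16 was lower with the block (-0.41, adjusted p = 0.0301, and 0.106 without), and its groups did not overlap. Mmp9, or gelatinase B, had 284, 149 and 214 normalized counts in WT and 21.9, 28.4 and 45.2 in PKN2 KO libraries. The PKN2 KO mean was 14.7% of the WT mean, the largest fall among the genes tested on the log2 scale (-2.74, SE 0.50, adjusted p = 0.00136). Mmp28 (epilysin) rose from 15.3, 14.2 and 10.6 to 54.7, 38.7 and 46.4 (log2 fold change 1.73, adjusted p = 6e-04). The abundant collagenolytic and gelatinolytic enzymes were not called without the block, with 0.12 for Mmp14 (95% interval -0.55 to 0.79, and -0.01 with the median of ratios) and 0.45 for Mmp2 (adjusted p = 0.498, 0.0231 with the block). The inhibitors Timp1, Timp2 and Timp3 stood at 0.22, 0.30 and -0.38, and Timp3 passed with the block (adjusted p = 0.0132, 0.288 without).

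Of 9 ADAMTS proteases 0 were called higher and 1, Adamts14, lower. Adamts12 (0.73) and Adamts5 (-0.71), an aggrecanase, passed with the block, with adjusted p-values of 0.00236 and 0.0108 against 0.061 and 0.0894 without. Adamts12 was also called by DESeq2 (0.0472), and Adamts5 by limma with each of the 3 other scalings. Of 6 ADAMTS-like and thrombospondin-repeat proteins, which lack protease activity, 1 was called higher and 1 lower. With the block 2 were higher and 2 lower, and 4 passed at an unadjusted p-value under 0.05. The block added Adamtsl5 (0.74, adjusted p = 0.0201, and 0.0894 without) and Adamtsl3 (-0.45, adjusted p = 0.0138, and 0.121 without). Adamtsl2, which binds fibrillin microfibrils and the latent TGF-β binding protein, had 97.9, 75.9 and 107 in WT and 401, 290 and 326 in PKN2 KO libraries (log2 fold change 1.85, adjusted p = 5.79e-04). Thsd7a, a membrane protein with thrombospondin repeats, had 173, 171 and 176 in WT and 71.1, 52.4 and 68.4 in PKN2 KO libraries, and fell by 1.44 (adjusted p = 2.23e-04). In 0 of the 7 ADAM sheddases tested was a difference called, by limma without or with the block, by edgeR or DESeq2, or at an unadjusted p-value under 0.05, and their log2 fold changes lay between -0.11 and 0.31. Adam10 stood at 0.02 (95% interval -0.43 to 0.48) and Adam17 at -0.06 (-0.45 to 0.34).

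Matricellular proteins, which signal to cells from the matrix more than they build it, gave 3 higher and 2 lower calls among 14 tested, with a median of 0.26. With the block 6 were higher and 2 lower. Beside Ccn2 and Thbs1, which fell, and Tgfbi, which rose, Smoc2, a calcium-binding relative of SPARC, had 196, 155 and 170 in WT and 611, 348 and 388 in PKN2 KO libraries (log2 fold change 1.33, SE 0.40, adjusted p = 0.0361). Dpt (dermatopontin), which promotes collagen fibril formation, rose from 36.6, 27.7 and 38.4 to 84.8, 59.3 and 73.2 (1.06, adjusted p = 0.0416). Dpt was the last gene within the threshold, and Cdh23 and Sgcd, both at 0.0534, were the first outside it. Thbs1 and Thbs2, which share their domain structure, had log2 fold changes of opposite sign, with 0.49 for Thbs2 (adjusted p = 0.289, 0.0139 with the block). Sparc, one of the most counted genes, stood at -0.11 (95% interval -0.68 to 0.46). Of 7 elastic fiber genes 1 was called lower, Efemp1 (fibulin-3), from 40.1, 24.5 and 43.2 to 19.1, 19.8 and 19.5 (fell by 0.81, adjusted p = 0.0277). It was the only called gene that edgeR (adjusted p = 0.0685) and DESeq2 did not call, and Fbn1 and Fbln5 passed with the block (adjusted p = 0.00925 and 0.00752, against 0.158 and 0.21 without) and with 3 and 2 of the 3 other scalings.

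Of 14 integrin genes 1 was called higher, and 5 with the block, against 14.5% and 38.8% called over all genes tested. That gene, Itgbl1, encodes a secreted protein with integrin β-like repeats, not a receptor chain, and rose from 27.1, 26.1 and 32.7 to 167, 78.2 and 162 (log2 fold change 2.13, SE 0.32, adjusted p = 2.86e-04). The collagen and fibronectin receptor chains Itgb1, Itgav and Itga5 stood at -0.05, -0.20 and 0.01, not called without or with the block. The other genes higher with the block were receptor chains, Itga1 (0.84), Itga6 (0.54), Itgb5 (0.43) and Itga7 (0.38). Their adjusted p-values were 0.0101, 0.00919, 0.0172 and 0.0398 with the block, against 0.103, 0.117, 0.399 and 0.369 without. Of 8 cadherin and catenin genes 0 were called higher and 1 lower, against 2 higher (Cdh6, 0.61, and Dchs1, 0.59) and 2 lower (Cdh2 and Cdh23, -0.90) with the block, and 3 were called by DESeq2. Cdh2 (N-cadherin) had 2019, 1386 and 1959 in WT and 1212, 819 and 1156 in PKN2 KO libraries, and fell by 0.75 with the same size within each letter (-0.74, -0.76 and -0.76; adjusted p = 0.0277). Pcdh18, a non-clustered protocadherin, fell from 398, 450 and 468 to 157, 175 and 203 (by 1.30 on the log2 scale, adjusted p = 1.81e-04). Of 22 clustered protocadherins, whose genes share 3′ exons, 0 were called by limma without the block, edgeR or DESeq2, and 0 passed at an unadjusted p-value under 0.05. With the block 1 was higher (Pcdhga11, 0.61, adjusted p = 0.029, and 0.509 without). Their log2 fold changes had a range from -0.26 to 0.61 after TGF-β1 and a median of 0.19 (0.86 in vehicle).

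Of 8 immunoglobulin-type adhesion molecules 0 were called by limma or edgeR and 1 by DESeq2, 3 passed at an unadjusted p-value under 0.05, and 1 was higher (L1cam, 0.45) and 3 lower (Vcam1, -0.62, Mcam, -0.48, and Flrt2, -0.36) with the block. Among 7 galectins and lectins 1 was called higher and 0 lower, and 2 were higher (with Clec16a, 0.69) and 1 lower (Clec2d, -1.03) with the block, while DESeq2 called 2 and 3 passed at an unadjusted p-value under 0.05. Lgals3 (galectin-3), a carbohydrate-binding protein of activated fibroblasts and macrophages, had 2712, 2742 and 2934 in WT and 6567, 4893 and 5677 in PKN2 KO libraries. The groups were well apart, by 1.02 on the log2 scale (SE 0.20, adjusted p = 0.00218). Lgals1 (galectin-1), the most counted gene of the panel, stood at -0.01 (95% interval -0.47 to 0.44). Of 5 cell-surface proteoglycans and mucins 0 were called by limma, 1 each by edgeR and DESeq2 and 2 at an unadjusted p-value under 0.05, with Gpc1 at 0.57 (adjusted p = 0.057, 0.0139 with the block). Adgre5 (CD97), an adhesion G protein-coupled receptor outside these families that was named after its values were seen, rose from 194, 147 and 135 to 388, 220 and 303 (0.91, adjusted p = 0.0106).

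Genes that lie close together were compared by position. Outside the protocadherin clusters, 21 pairs of tested genes lay within 250 kb of each other on GRCm38, and both genes were called in 2 pairs and 1 gene in 3. The pairs with both called were Prelp with Fmod, 116 kb apart, and Col4a1 with Col4a2, which share a promoter region, and in each pair both rose. Of the other pairs, Aspn (0.85) is next to Ecm2 (-0.03) and Serpinb1a (1.84) lies 152 kb from Serpinb9 (0.49).

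The same genotype difference was also measured in vehicle. In the same fit, 32 of the 214 genes (15%) were called in vehicle, and 18 of them were also called after TGF-β1, each in the same direction. The 13 genes called after TGF-β1 and not in vehicle included Adamts14, Adgre5, Cdh2, Ccn2, Dpt, Lgals3, Loxl2, Mmp9, Serpinb1a, Smoc2, Tgfbi and Thbs1. That a gene passed in one treatment and not in the other does not show that the treatments differ, which the interaction of genotype and TGF-β1 tests. It was called for 7 genes (3.27%), 2 positive and 5 negative, and 4 of the 13 genes were among them.

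**Figure D4:**
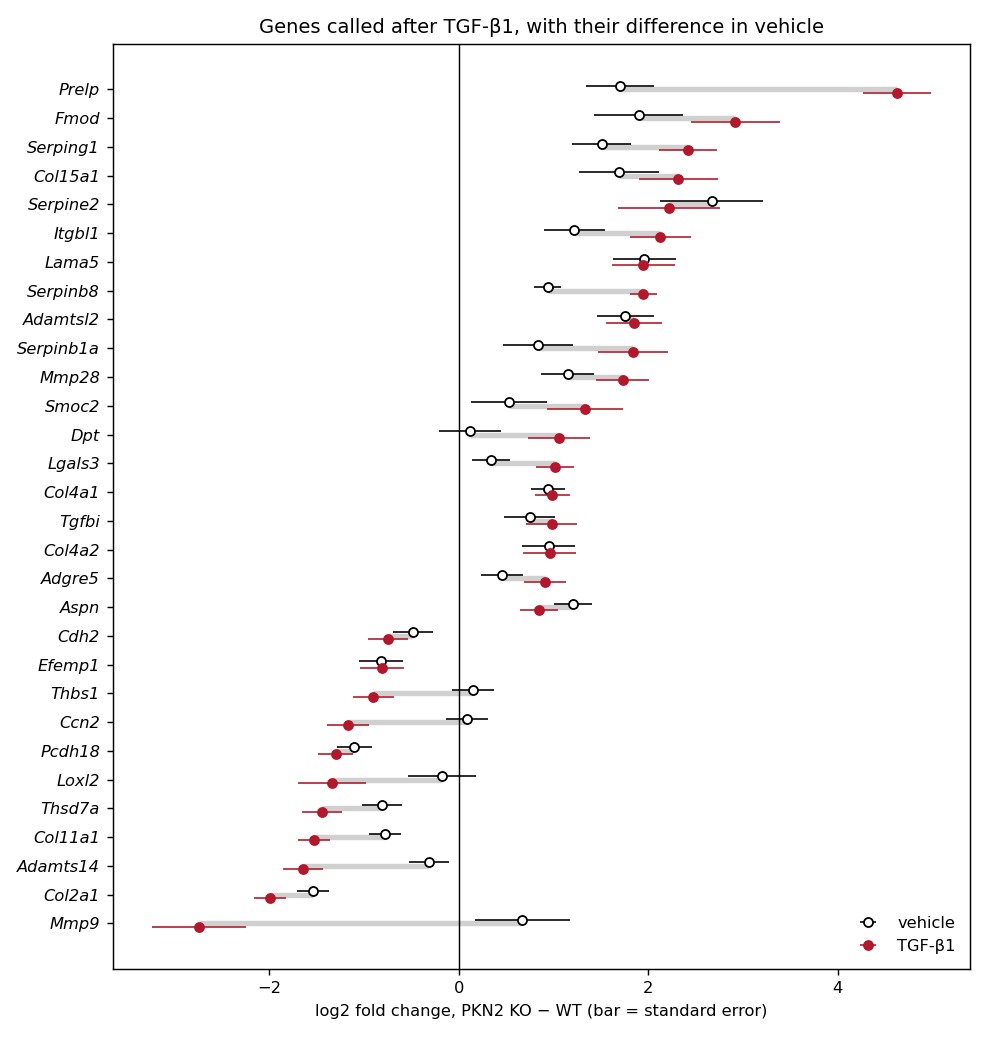
Log2 fold change, PKN2 KO minus WT (x axis), of 30 of the genes called after TGF-β1 (rows), with filled red points for TGF-β1 and open points for vehicle. Bars are standard errors. For Ccn2, Thbs1 and Mmp9 the vehicle point lies on the other side of 0, and Mmp9 had almost no reads in vehicle.

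For Ccn2 the genotypes differed after TGF-β1 and overlapped in vehicle. Ccn2 had 16769, 25375 and 25292 normalized counts in WT and 25506, 24112 and 21302 in PKN2 KO libraries with vehicle (log2 fold change 0.09, adjusted p = 0.845). With the values after TGF-β1 given above, its interaction was -1.26 (SE 0.31, adjusted p = 0.0401). That of Thbs1 was -1.05 (adjusted p = 0.107). Mmp9 had between 0 and 2.34 normalized counts in the 6 vehicle libraries, so the size of its interaction (-3.41, adjusted p = 0.023) depends on the pseudocount.

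For Prelp and Serpinb8 a difference present in vehicle was larger after TGF-β1. Prelp had 1279, 591 and 970 in WT and 3204, 2325 and 3379 in PKN2 KO libraries with vehicle, so that both genotypes were lower after TGF-β1 and WT more so. Its interaction was 2.93 (SE 0.51, adjusted p = 0.0122). Serpinb8 had 391, 427 and 444 in WT and 793, 796 and 831 in PKN2 KO libraries with vehicle (interaction 1.01, SE 0.20, adjusted p = 0.023), and the PKN2 KO means were close in both treatments. Adamts14 had 186, 218 and 159 in WT and 155, 144 and 150 in PKN2 KO libraries with vehicle, far closer than after TGF-β1 (interaction -1.33, adjusted p = 0.028). Adamtsl3 was called in vehicle, where PKN2 KO was higher (0.71, adjusted p = 0.0169). After TGF-β1 it stood at -0.45 and was not called without the block (adjusted p = 0.121). It was called lower with the block (adjusted p = 0.0138) and with 2 of the 3 other scalings. The interaction of Adamtsl3 was -1.16 (adjusted p = 0.028).

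**Figure D5:**
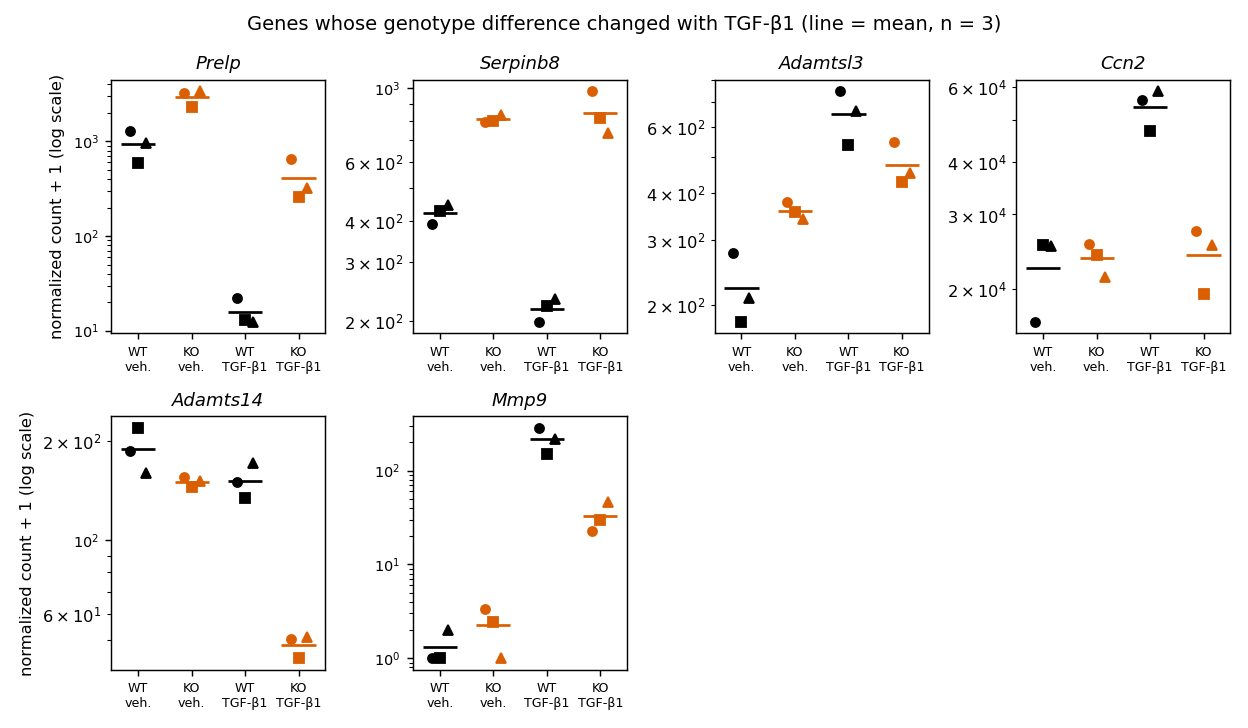
Normalized counts plus 1 (y axes, log scale, a range of its own for each gene) in the 4 groups of 3 libraries for 6 of the genes with a called interaction, WT in black and PKN2 KO in orange, with circles for library A, squares for B and triangles for C. Lines are means. For Ccn2 the 2 vehicle groups overlap and the TGF-β1 groups do not.

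The calls differed in how far they rested on single libraries. With each of the 6 TGF-β1 libraries left out in turn, 21 of the 31 genes stayed past the threshold in all 6 fits, and 10 lost it in at least 1. Without WT library C all 10 were lost, with adjusted p-values of 0.125 for Cdh2 and Efemp1, 0.111 for Smoc2, 0.0832 for Col4a2, 0.0819 for Dpt, 0.0661 for Serpine2 and Tgfbi, and 0.0608 for Adgre5, Loxl2 and Thbs1. Without WT library A 6 were lost, without WT B 4, without PKN2 KO A 7, without PKN2 KO B 2 and without PKN2 KO C 5, and the highest adjusted p-value among these was 0.147 (Smoc2 without PKN2 KO A). All 31 kept their direction in every fit and had a difference of the same sign within all 3 letters. Both follow from groups that do not overlap and add no evidence of stability. All 31 were also called with the letter as a block. The 7 interactions were less stable, as limma called 0 without PKN2 KO vehicle library B and 1 without each of PKN2 KO vehicle A, WT TGF-β1 A, WT TGF-β1 C and PKN2 KO TGF-β1 B. It called 2 to 4 without WT vehicle C, WT vehicle A, PKN2 KO vehicle C or PKN2 KO TGF-β1 C and 7 to 10 without the others, and Prelp passed in 11 of the 12 fits. Of the 183 genes not called, 110 had a 95% interval within 1 log2 unit of 0 and 24 within 0.5, and for the remaining genes the interval reaches a 2-fold change.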

How the data were processed

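Libraries were made by the authors with a targeted panel (QIAseq) from PSC RNA and pooled for sequencing. The submitters' processing notes name STAR, DESeq2 1.32 and build mm10; whether reads were collapsed by molecular index is not given in the sources used here. The authors deposited raw counts and normalized counts per gene, the latter a signal scaled by 1 factor per library from reference genes. Among the deposited raw counts, 6 columns carry repeated names and were not used, so all values come from the normalized tables. Multiplying by the factor gave whole reads (largest distance 5.8e-05, tolerance 0.02), equal to the raw counts for all 420 genes in the other 6 columns.

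log2(normalized count + 1) was fitted with limma 3.58.1 in R 4.3.3 (all 12 libraries, 1 mean per group, trend, robust), with Benjamini-Hochberg adjustment over 214 genes at 0.05. On this scale folds of low genes are understated. edgeR 4.0.16 and DESeq2 1.42.0 ran on the whole reads as alternatives. Scripts were tested on simulated data. Between the TGF-β1 groups, deviations of same-lettered libraries from their group means correlated across genes by 0.766 (A), 0.797 (B) and 0.266 (C). Letters taken from the labels were treated as pairs. The block was fitted over all 12 libraries, where pairs of letter C correlated from -0.286 to 0.266. Blocked p-values after TGF-β1 thus also rest on libraries that letter C did not pair. With the block and the trend the median prior degrees of freedom were 149.71, more than 12 libraries allow, so blocked p-values come from a fit without the trend (3.23, against 5.41 in the unblocked fit).

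Members, gene lists and tests were chosen with earlier results of these data known. The genes named are the called genes whose groups did not overlap (at most the 14 that changed most, in each direction), members of any list described, called interactions and genes at an edge. One gene that entered the fits and counts is not reported here. Intervals and p-values cover the spread between libraries. Gene identifiers were matched to symbols for 420 of 420 genes.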

Additional observations from a re-analysis of the deposited data

Results flagged for a closer look

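For 7 genes the difference between PKN2 KO and WT after TGF-β1 differed from that in vehicle, by the interaction term of the limma fit over 214 genes. The interaction on the log2 scale was positive for Prelp (2.93, adjusted p = 0.0122) and Serpinb8 (1.01, adjusted p = 0.023). It was negative for genes that included Mmp9 (-3.41, adjusted p = 0.023), Adamts14 (-1.33, adjusted p = 0.028), Ccn2 (-1.26, adjusted p = 0.0401) and Adamtsl3 (-1.16, adjusted p = 0.028). edgeR gave adjusted p-values of 0.012 for Prelp, 0.0279 for Serpinb8, 0.0356 for Adamts14 and Adamtsl3, 0.053 for Ccn2 and 0.166 for Mmp9. With each of the 12 libraries left out in turn, limma called Prelp in 11 fits, Mmp9 in 7, Serpinb8 in 6, and Adamts14, Adamtsl3 and Ccn2 in 3 each.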

How the results depend on the processing

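Against 31 genes called after TGF-β1, the count was 52 with the median of ratios, 61 with the total count, 60 with DESeq2 and its own factors, 63 at an unadjusted p-value under 0.05, 94 with the replicate block (83 when no trend was fitted), and 111 with the block in a fit of the 6 TGF-β1 libraries. Alternatives chosen after seeing the data gave 65 for the total without the 10 most counted genes and, with the block and no trend, 83 with TMM, 92 with the median of ratios and 95 with the total count. It was 46 with TMM, 33 with edgeR, 43 with DESeq2 and the authors' factors, and 26 in a fit of the 6 libraries alone, and the other filters, pseudocounts and variance settings gave 30 to 37. With each library left out in turn it ranged from 21 to 42. The block ended none of the 31 calls, and beyond the added genes it changed no other call.

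For the interaction, against 7 genes, the count was 11 with DESeq2 and the authors' factors, 12 with its own, 20 at an unadjusted p-value under 0.05, 5 with edgeR, and 0 to 10 with each library left out. Letters did not pair all of the 12 libraries, which also enter the blocked fit after TGF-β1 (correlations from -0.286 to 0.808 over 18 pairs). With the replicate block it was 41, 23 with no trend, and 24, 30 and 29 with TMM, the median of ratios and the total count added. The cause of these differences was not tested. Depth limits genes of few reads, such as Col15a1, and 3 libraries a group limit the rest.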
